A study of Mus musculus with 2 samples.

Results

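The genes described here are 10 members of the CCN, thrombospondin and matricellular group: Ccn1, Ccn2, Ccn3, Ccn4, Ccn5, Thbs1, Thbs2, Sparc, Postn and Tgfbi. They were chosen by name, with earlier results of these data known. All 10 were found among the 19070 genes of each section. They were measured by Visium HD in brain sections of male C57Bl6 mice aged 3 months after controlled cortical impact (CCI), a focal traumatic brain injury made by a piston that strikes the exposed cortex of a single side. The 3 days CCI group and the 28 days CCI group each held 1 section from 1 mouse, and no uninjured brain was analysed here. The labels call the mice untreated, and the study's methods give C57BL/6J as the strain and name ketamine, medetomidine, buprenorphine and bupivacaine for anaesthesia and pain relief at surgery. The values are counts of unique molecular identifiers (UMIs), single captured probe molecules, in square bins of 16 µm, each of which may cover several cells in part. The 3 days section held 120615873 UMIs in 121967 bins, with a median of 836 per bin, and the 28 days section held 82422389 UMIs in 105589 bins, with a median of 596.

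Matricellular proteins are secreted into the extracellular matrix, where they do not build the scaffold but bind integrins, growth factors and proteases and so set how cells attach, migrate and respond to growth factors. CCN proteins share modules with insulin-like growth factor binding proteins and thrombospondins, and Ccn1 and Ccn2 are classical target genes of the YAP/TAZ and serum response factor pathways. Thrombospondins 1 and 2 bind CD36 and CD47, restrain blood vessel growth, and are released by astrocytes as signals for synapse formation during development. In the adult brain most of these genes are known from meninges, vessel walls and reactive tissue, while Sparc is a general product of glia and endothelium.

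The injured side was the side below array column 130 at 3 days and below column 240 at 28 days. It held 39116 bins of at least 100 UMIs at 3 days and 49478 at 28 days, and the opposite side held 80501 and 53838 bins. A lesion zone was drawn on the injured side from 6 phagocyte genes (Cd68, Lyz2, Ctsz, Lgals3, Cd52 and Laptm5), none of them a member, and its mirror image across the midline served as reference. The zone covered 541 of 2495 tiles of 64 µm at 3 days and 872 of 3138 tiles at 28 days. Mean depth was 618 UMIs per bin in the zone against 924 in the mirror zone for the early section, and 517 against 611 for the late one. Levels are given as UMIs per 1000000 UMIs of the region (CPM). Since a group held a single section, the spread between mice is unknown and no p-value is given. The 95% intervals in brackets cover counting error only, and neighbouring bins are not independent. The array captured 2.08 mm of the injured side and 4.62 mm of the opposite side at 3 days, but 3.84 and 2.86 mm at 28 days, so that sides and time points did not hold the same brain regions. Brain tissue was evident on both sides: the summed level of 5 neuronal markers at 3 days was 3571 CPM on the injured side against 5819 on the other, and at 28 days 4379.5 against 6017. The injured side was richer in choroid plexus, whose 4 markers summed to 259 against 51.8 CPM in the early section and 164 against 94.2 CPM in the late one. In bins that mix cells, more cells of a type and more RNA per cell cannot be told apart.

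The members fell into groups by side and time. Thbs1, Ccn1, Tgfbi and Ccn2 were high in the lesion at 3 days and had much lower lesion levels at 28 days, whereas Ccn5, Postn, Thbs2 and Sparc had the higher lesion level at 28 days. Ccn3 had no detectable lesion difference at 3 days and changed the sign of its side difference between sections, though not in the columns captured on both sides. Ccn4 was sparse throughout. In the comparison of sides, 6 of 10 members were at least 2-fold higher on the injured side at 3 days, against 10.5% of 16164 genes. Ccn3 was at least 2-fold lower, against 2.12% of genes, but at 0.81-fold in the columns captured on both sides. At 28 days 5 of 10 members were at least 2-fold higher, against 6.43% of 15640 genes. In the comparison of the lesion zone with the mirror zone, 7 members were at least 2-fold higher at 3 days of the 9 that reached 20 UMIs over both zones, against 16.8% of 13544 genes. At 28 days all 9 that reached 20 UMIs were, against 15.1% of 13529 genes. Without bins within 96 µm of the tissue edge, Ccn3 was at 1.68-fold at 28 days. Postn at 3 days (18 UMIs over both zones) and Ccn4 at 28 days (15 UMIs) were below that minimum. No member was at least 2-fold lower in the zone, against 8.32% of genes at 3 days and 6.93% at 28 days.

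**Figure D1:**
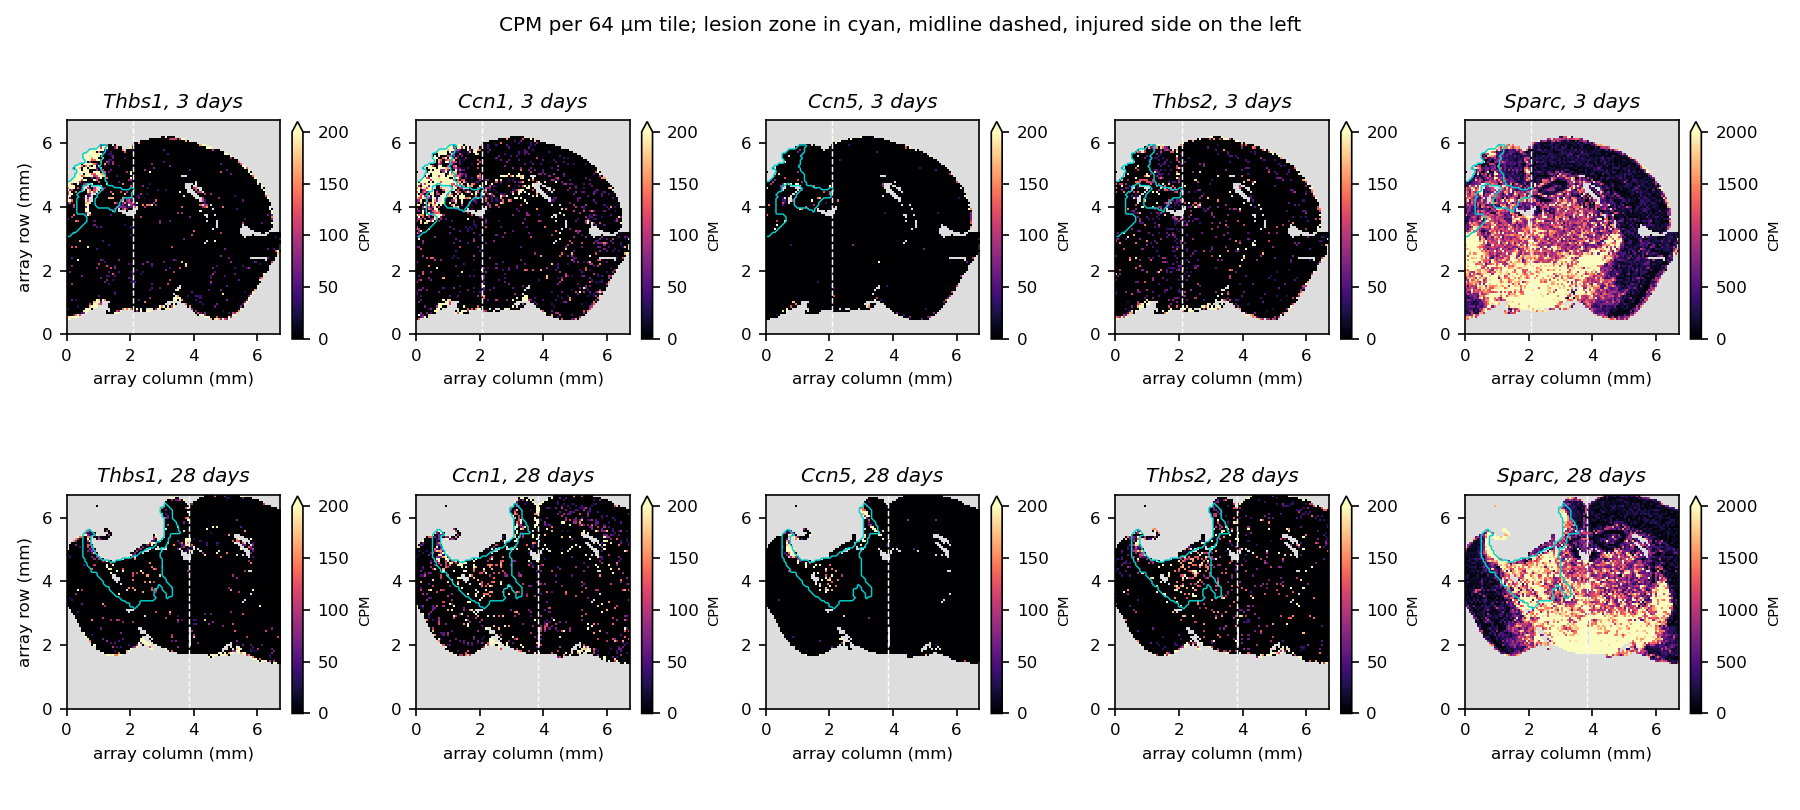
CPM of 5 members in tiles of 64 µm over the array (both axes in mm), 3 days above and 28 days below, with the injured side left of the dashed midline and the lesion zone outlined in cyan; tiles under 2000 UMIs are grey and the scale ends at 200 CPM, or 2000 CPM for Sparc. Thbs1 and Ccn1 are high in the zone at 3 days, Ccn5 marks the rim of the empty area at 28 days, and Thbs2 is scattered through the zone tissue at 28 days.

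Thbs1 encodes thrombospondin 1, an inhibitor of angiogenesis and an activator of latent TGF-beta. In the 3 days section Thbs1 was at 212 CPM in the lesion zone (1108 UMIs) and 4.10 CPM in the mirror zone (30 UMIs). In the 28 days section it was at 20.4 CPM in the zone (143 UMIs) and 2.32 CPM in the mirror zone (17 UMIs). The zone was thus higher in both sections, with a log2 ratio of 5.67 (5.17 to 6.26) at 3 days and 3.10 (2.41 to 3.96) at 28 days. Thbs1 was the member with the greatest share of its UMIs inside the lesion zone at 3 days, 51.9% of the UMIs in the section (49.7 to 54.0%, exact Clopper-Pearson), where the zone held 4.34% of all UMIs. At 28 days its share was 19.8% (16.9 to 22.9%), with 8.51% of all UMIs in the zone. Over whole sides at 3 days, Thbs1 was at 43.6 CPM on the injured side against 6.03 on the other, with a log2 ratio of 2.85 (2.71 to 3.00) that was 3.99 without the bins within 96 µm of the tissue edge. The late section had 13.3 against 5.07 CPM, 1.39 (1.16 to 1.62). The level on the opposite side was therefore close in both sections, and the difference between sections lay on the injured side.

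Thbs2 encodes thrombospondin 2, a relative of thrombospondin 1 that fibroblasts and astrocytes secrete. At 3 days Thbs2 was at 22.7 CPM in the zone and 5.61 CPM in the mirror zone (119 and 41 UMIs), a log2 ratio of 2.01 (1.5 to 2.57). The values at 28 days were 44.4 and 5.45 CPM (311 and 40 UMIs), a log2 ratio of 3.01 (2.55 to 3.54). The zone level of the 2 thrombospondins moved in opposite directions between sections: Thbs1 was 10.3-fold lower at 28 days, with a log2 ratio of 28 days over 3 days of -3.37 (-3.64 to -3.12), and Thbs2 was 1.95-fold higher, 0.96 (0.66 to 1.28).

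Ccn1 (formerly Cyr61) is an immediate early gene whose product binds integrins of fibroblasts, endothelium and macrophages. At 3 days Ccn1 was at 205 CPM in the zone and 16.8 CPM in the mirror zone (1073 and 123 UMIs). The section of 28 days had 48.0 and 6.68 CPM (336 and 49 UMIs). These gave log2 ratios of 3.60 (3.34 to 3.89) for the early and 2.83 (2.41 to 3.31) for the late section. With the whole opposite side as the reference they were 4.42 and 2.20. Between sections the zone level was 4.27-fold lower at 28 days. Whole sides gave 47.7 CPM on the injured and 9.58 CPM on the other side in the early section, 2.31 (2.19 to 2.44), and 21.8 and 10.4 CPM in the late one, 1.06 (0.90 to 1.23). The level opposite the injury was thus close between sections.

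Ccn2 (formerly Ctgf) is the connective tissue growth factor, a target of TGF-beta in fibroblasts and a marker of deep cortical neurons in the uninjured mouse brain. At 3 days Ccn2 was at 116 CPM in the zone and 19.0 CPM in the mirror zone (605 and 139 UMIs), a log2 ratio of 2.60 (2.34 to 2.88). The values at 28 days were 33.7 and 10.5 CPM (236 and 77 UMIs), with a ratio of 1.68 (1.31 to 2.07). Over whole sides the difference was small at 3 days, 39.9 against 35.2 CPM, and its log2 ratio of 0.18 (0.09 to 0.27) turned to -0.38 without edge bins but was 0.81 in the columns captured on both sides of the midline. At 28 days the sides were at 43.1 and 24.9 CPM, a log2 ratio of 0.79 (0.68 to 0.90) that was 0.32 in those columns. Of the Ccn2 UMIs of the 3 days section, 13.7% (12.7 to 14.8%) lay in the zone, which held 4.34% of all UMIs. The gene was thus not confined to the lesion.

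The sequences just upstream of the annotated gene starts are shown for Ccn1 and Thbs2, the CCN and thrombospondin member of opposite direction between sections that the RefSeq promoter table (GRCm38.p6) held. That table matched 5 of the 10 members (Ccn1, Postn, Sparc, Thbs2 and Tgfbi). Each stretch has 250 bases, 5′ to 3′ on the strand of the gene, and ends at the base before the gene start. Capitals mark matches, on either strand, to GGAATG (the TEAD motif through which YAP/TAZ act), TGANTCA (AP-1), CAGACA (a SMAD element) or the CArG box of serum response factor. These 4 motifs were present in 12.6%, 6.75%, 17.1% and 1.47% of 32851 promoter stretches of the same length. Ccn1 held 1 TEAD match and Thbs2 held 2 SMAD matches, Sparc held 1 SMAD match, and no match overlapped another. Ccn1 lies on the minus strand at chr3:145649986-145650235 and Thbs2 on the minus strand at chr17:14694263-14694512.
Ccn1: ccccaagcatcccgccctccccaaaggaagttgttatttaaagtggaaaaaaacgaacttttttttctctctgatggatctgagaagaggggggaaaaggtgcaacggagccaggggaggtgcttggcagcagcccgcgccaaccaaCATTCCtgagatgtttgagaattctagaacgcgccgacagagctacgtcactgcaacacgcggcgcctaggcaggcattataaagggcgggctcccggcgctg
Thbs2: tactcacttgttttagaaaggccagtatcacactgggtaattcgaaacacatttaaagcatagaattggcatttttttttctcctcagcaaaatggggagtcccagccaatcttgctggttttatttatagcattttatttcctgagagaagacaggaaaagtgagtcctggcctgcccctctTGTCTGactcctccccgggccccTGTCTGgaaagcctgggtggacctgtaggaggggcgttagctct

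Ccn5 (also Wisp2) is a CCN protein without the C-terminal cystine knot of the others, known from smooth muscle and fibroblasts. At 3 days Ccn5 had 46 UMIs in the lesion zone (8.79 CPM) and 3 UMIs in the mirror zone (0.410 CPM), a log2 ratio of 4.21 (2.78 to 6.75). The 28 days section had 520 UMIs in the zone (74.3 CPM) and 1 UMI in the mirror zone, a log2 ratio of 8.51 (6.61 to 14.4). No other member was so concentrated: 91.4% (88.8 to 93.6%) of the 569 Ccn5 UMIs of the 28 days section lay in the zone, against 27.5% of 167 at 3 days. Over sides at 28 days, Ccn5 was at 15 CPM on the injured side against 0.244 on the other (558 and 11 UMIs), a log2 ratio of 5.89 (5.10 to 6.96), and 4.89 in the columns captured on both sides. At 3 days the sides had 84 and 83 UMIs, a ratio of 1.16 (0.70 to 1.61) that was 2.17 without edge bins. The zone level was 8.37-fold higher at 28 days than at 3 days, a log2 ratio of 3.06 (2.64 to 3.55).

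Ccn3 (formerly Nov), which opposes several actions of Ccn2 and is expressed by cortical neurons, was the exception among the CCN members. At 3 days Ccn3 was at 25.6 CPM in the zone and 21.9 CPM in the mirror zone, a log2 ratio of 0.23 (-0.12 to 0.57), and at 28 days at 17.4 and 7.77 CPM, 1.16 (0.70 to 1.65). The 28 days ratio was -0.05 over zone bins whose mirror bin lay over tissue, and against the whole opposite side the ratios were -1.83 at 3 days and -1.30 at 28 days. Over sides Ccn3 was lower on the injured side at 3 days, 31.3 against 91.4 CPM, and higher at 28 days, 77.5 against 43.0 CPM. In the columns captured on both sides of the midline these log2 ratios were -0.31 and -0.14. Side and captured brain region cannot be told apart for this gene. Ccn4 (Wisp1), a target of Wnt signalling, had 22 UMIs in the early zone and 9 in its mirror image, a log2 ratio of 1.73 (0.60 to 3.07), and 9 and 6 UMIs at 28 days. Its side ratios were -0.35 (-0.84 to 0.11) and 0.16 (-0.57 to 0.88), intervals that both held 0. The interval of the early side ratio lay below 0 under 3 alternatives, with -0.50 (-0.99 to -0.04) when scaled by trimmed means (TMM), -0.57 (-1.12 to -0.06) when edge bins were dropped and -0.51 (-1.0 to -0.06) when the midline lay 12 columns higher, but the ratio was 0.32 (-0.29 to 0.93) in the columns captured on both sides.

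Tgfbi encodes a TGF-beta induced matrix protein that macrophages and fibroblasts secrete. At 3 days Tgfbi was at 122 CPM in the zone and 8.07 CPM in the mirror zone (636 and 59 UMIs), a log2 ratio of 3.90 (3.53 to 4.32) that was 3.28 with a midline 12 columns lower and 4.64 against the whole opposite side. The late section had 39.6 and 6.27 CPM (277 and 46 UMIs), 2.64 (2.20 to 3.14). The zone level was 3.07-fold lower at 28 days, and the side away from the injury was at 4.88 and 5.07 CPM in the early and late section. The injured side had 28.9 and 14.0 CPM, side ratios of 2.57 (2.40 to 2.73) and 1.46 (1.24 to 1.69), the latter 0.85 and thus under 2-fold without edge bins.

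Postn encodes periostin, a product of activated fibroblasts. It was sparse, with 158 UMIs in the 3 days section and 193 at 28 days. Among the zone and the bands of distance from it, the highest level at 3 days lay within 250 µm of the border, at 8.74 CPM (6.53 to 11.5). The zone was at 2.67 CPM (1.46 to 4.49) and the other side at 0.675 CPM. Outside the zone, edge bins of the injured side were at 12.7 CPM and deeper bins at 1.85 CPM. At 28 days the zone was highest in that ranking, at 9.14 CPM (7.04 to 11.7), against 2.74 CPM (1.65 to 4.28) within 250 µm. Edge bins outside the zone were at 8.85 CPM. The zone level was 3.32-fold higher at 28 days than at 3 days, 1.73 (0.92 to 2.72). The opposite side was also higher at 28 days, at 1.62 CPM, 2.39-fold or 1.26 (0.74 to 1.79). The whole injured side did not differ detectably between sections, 0.25 (-0.14 to 0.65).

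Sparc encodes osteonectin, a collagen-binding glycoprotein of astrocytes, microglia and endothelium. Sparc had UMIs in 45.7% of bins at 3 days and 40.6% at 28 days. At 3 days it was at 957 CPM in the zone and 503 CPM in the mirror zone, a log2 ratio of 0.93 (0.87 to 0.99). The 28 days values were 1593 and 702 CPM, 1.18 (1.13 to 1.23). Its difference was thus below 2-fold at 3 days and above it at 28 days. At 3 days the zone did not have the highest Sparc level of the injured side, since tissue over 1000 µm away was at 1593 CPM. At 28 days it did, at 1593 CPM against 734 CPM within 250 µm and 1104 CPM over 1000 µm away. The side difference of Sparc at 3 days, 1239 against 679.6 CPM or 0.87 (0.85 to 0.88), was 0.22 in the columns captured on both sides. At 28 days the sides were at 1025 and 773 CPM, 0.41 (0.39 to 0.43). Unlike the zone, the whole injured side was lower at 28 days than at 3 days, -0.27 (-0.29 to -0.25).

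**Figure D2:**
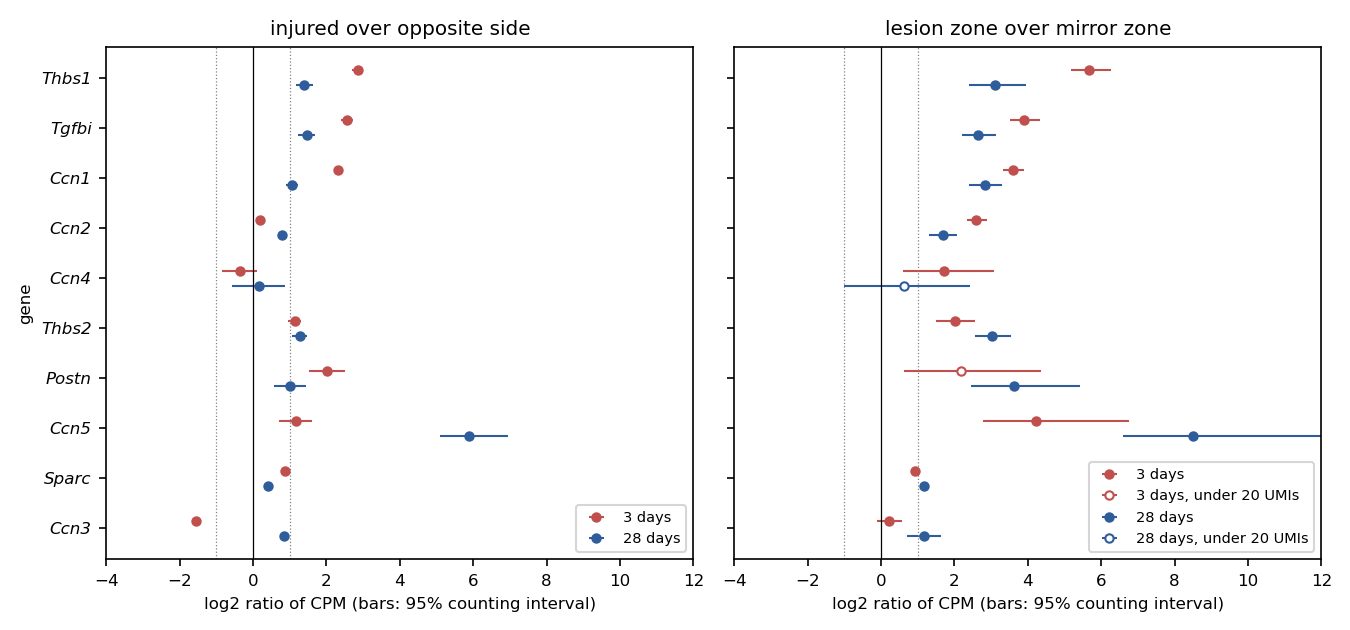
Log2 ratio of CPM (x axis) for each member (y axis), injured over opposite side on the left and lesion zone over mirror zone on the right, red for 3 days and blue for 28 days; bars are 95% counting intervals, dotted lines mark 2-fold and open points had under 20 UMIs. Thbs1, Tgfbi, Ccn1 and Ccn2 have the larger zone ratio at 3 days, and Ccn5, with an interval that runs past the axis end of 12, at 28 days.

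The direct comparison of the zones at both time points put 5 members at least 2-fold lower in the late zone (Thbs1, Ccn1, Ccn2, Ccn4 and Tgfbi), against 6.72% of 13632 genes, and 2 at least 2-fold higher (Ccn5 and Postn), against 4.43%. The log2 ratios of 28 days over 3 days were -2.09 (-2.28 to -1.92) for Ccn1, -1.78 (-2.0 to -1.56) for Ccn2 and -1.62 (-1.83 to -1.41) for Tgfbi. Over the whole injured side Ccn2 was not lower at 28 days, 0.11 (0.01 to 0.21). On the opposite side Ccn2 was lower, -0.50 (-0.60 to -0.40). Ccn4, with 22 and 9 zone UMIs, was at -1.66 (-3.01 to -0.53). It was also lower at 28 days on the opposite side, at -1.14 (-1.72 to -0.62). Sparc was at 0.74 (0.69 to 0.78), within 2-fold. Each zone came from a single mouse. The sum of 6 macrophage markers, of which Cd68 and Lyz2 had also placed the zone, was 609.9 against 37.2 CPM between zone and mirror zone at 3 days and 1250.4 against 17.2 CPM at 28 days, with Arg1 at 420 zone UMIs at 3 days and 3 at 28 days. Lyz2 made up 249 CPM of the early and 914 CPM of the late zone sum. The 6 fibroblast markers summed to 535 against 88.2 CPM and 187 against 50.1 CPM, and the 4 smooth muscle markers to 570.1 against 66.2 CPM and 154 against 81.2 CPM. Tagln alone made up 477 against 29.4 CPM of the early smooth muscle sum, while Myh11 had a ratio of 0.20 (-0.27 to 0.66). All 6 fibroblast markers were at least 2-fold higher in the zone at 3 days and 5 of 6 at 28 days. All 6 macrophage markers were at 3 days, and all 5 that reached the minimum at 28 days, with Cd68 and Lyz2 so by the way the zone was drawn. Of the smooth muscle markers 3 of 4 were at 3 days and 1 of 3 at 28 days. The share of all genes beside each of these counts was 16.8% at 3 days and 15.1% at 28 days. None of the fibroblast, macrophage and smooth muscle markers was at 0 in any zone. Glial and neuronal lists moved as well: astrocyte markers were at 4872 against 1787 CPM in the early and 7756 against 789 CPM in the late section, microglial markers at 975 against 364 and 1871 against 243 CPM, oligodendrocyte markers at 8119 against 3249.8 and 6312 against 6166 CPM, and neuronal markers at 1727 against 6478 and 2245 against 5454 CPM. Endothelial markers were at 425 against 163 and 316 against 226 CPM. The part of all these lists in the levels of the members and of the pathway genes was not tested.

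Away from the zone Thbs1, Ccn1 and Tgfbi were lower with distance up to 1000 µm. At 3 days Thbs1 was at 43.7 CPM within 250 µm of the zone, 12.0 CPM at 250 to 500 µm and 2.50 CPM at 500 to 1000 µm. Ccn1 was at 75.8, 13.2 and 7.51 CPM in the same bands, and Tgfbi at 40.9, 13 and 6.17 CPM. Beyond 1000 µm Thbs1 was at 12.5, Ccn1 at 10.1 and Tgfbi at 7.0 CPM. In the early section Ccn2 within 250 µm was at 30.6 CPM, against 35.2 CPM on the other side, -0.20 (-0.42 to 0.02). Against the opposite side, the band within 250 µm had a log2 ratio of 2.99 (2.82 to 3.15) for Ccn1, 2.86 (2.64 to 3.08) for Thbs1 and 3.07 (2.83 to 3.30) for Tgfbi at 3 days. At 28 days the same ratios were 0.43 (0.09 to 0.74), 1.35 (0.97 to 1.70) and 1.26 (0.88 to 1.62). Ccn5 at 28 days had 74.3 CPM in the zone, 2.74 CPM within 250 µm and 0.445 CPM at 250 to 500 µm. Ccn2 had no such decline at 28 days, with 33.7 CPM in the zone and 55.0 CPM at 500 to 1000 µm.

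**Figure D3:**
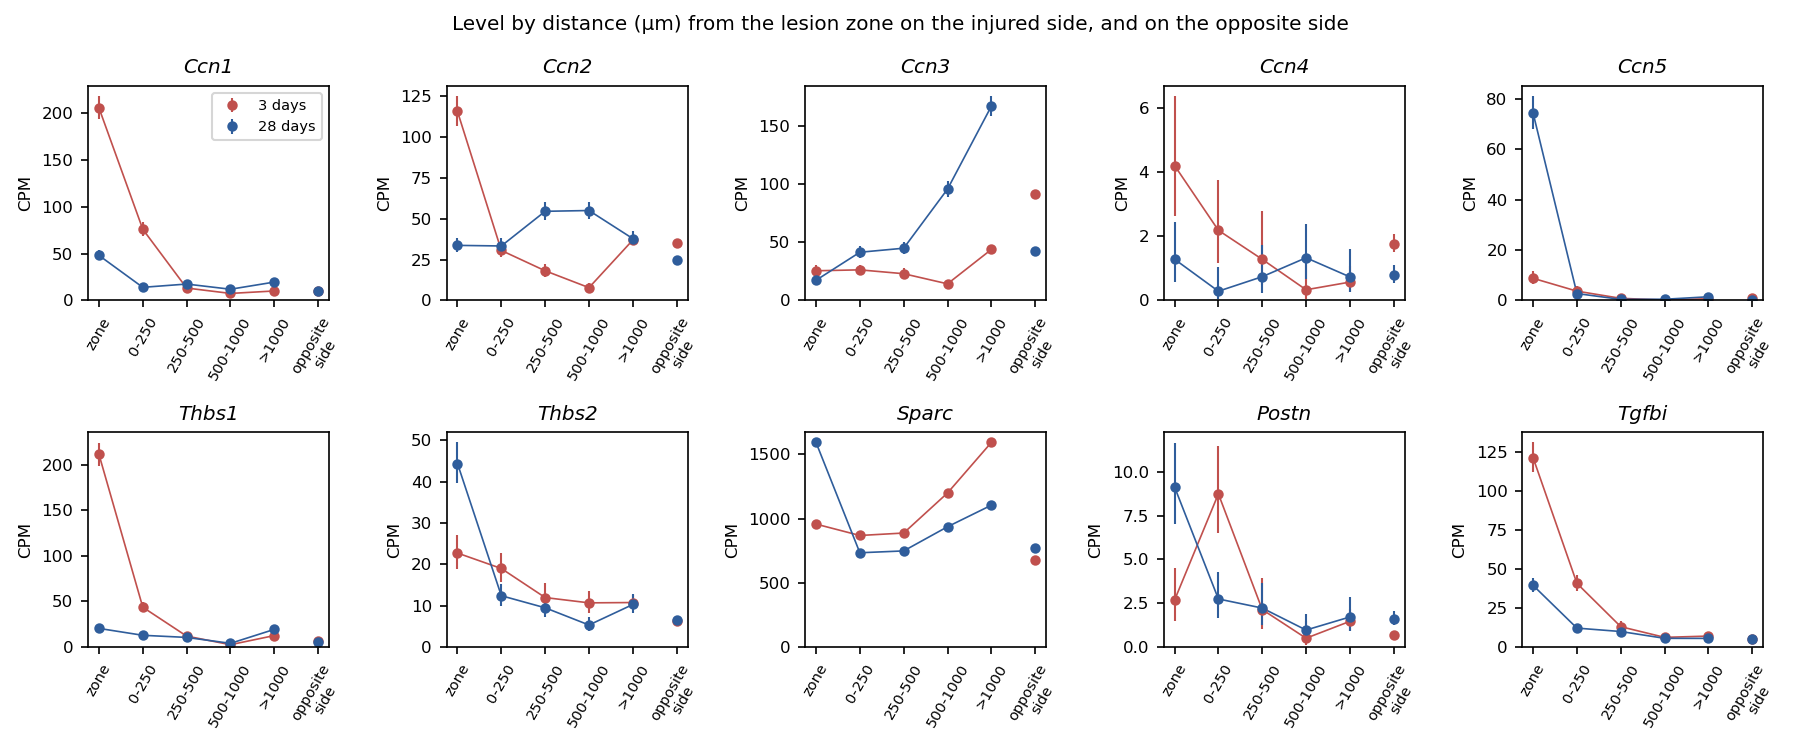
CPM of each member (y axis, scale of its own) in the lesion zone, in bands of distance from it on the injured side (x axis, µm) and on the whole opposite side, red for 3 days and blue for 28 days; bars are exact Poisson 95% intervals. Thbs1, Ccn1 and Tgfbi drop from the zone outwards to 1000 µm at 3 days, while Ccn3 at 28 days is highest over 1000 µm away.

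The tissue edge means bins within 96 µm of the outer surface or of another large empty area such as a ventricle. On the side away from the injury, 8 of 10 members were at least 2-fold higher at the edge than deeper at 3 days, against 21.1% of 15117 genes, and 7 of the 9 that reached 20 UMIs at 28 days, against 20.6% of 14399 genes. Sparc and Ccn4 were not, and Ccn5 had only 11 UMIs there at 28 days. On the opposite side Thbs1 was at 71.3 CPM in edge bins and 2.06 CPM deeper at 3 days, 5.11 (4.84 to 5.39) as a log2 ratio. The 28 days values were 63.5 and 2.05 CPM, 4.95 (4.56 to 5.35). The same ratio was 3.51 (3.25 to 3.76) and 2.95 (2.57 to 3.32) for Thbs2, 3.04 (2.73 to 3.34) and 2.91 (2.47 to 3.33) for Tgfbi, and 2.42 (2.30 to 2.54) and 2.73 (2.53 to 2.92) for Ccn2. Sparc was nearly level at 3 days, 0.15 (0.11 to 0.20), and higher at the edge by less than 2-fold at 28 days, 0.60 (0.54 to 0.66). Fibroblast markers were at 1063 CPM in the edge bins and 38.9 CPM deeper at 3 days, and at 608 and 42.8 CPM at 28 days.

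In the 3 days lesion zone the difference between edge bins and all deeper bins pooled was small for Thbs1 and not detectable for Tgfbi. Thbs1 was at 304 CPM in edge bins of the zone, 204 CPM at 96 to 250 µm and 251 CPM at 250 to 500 µm. It was much lower over 500 µm deep, at 39.5 CPM, a fall that the pooled ratio does not show. The log2 ratio of edge over deeper zone bins was 0.62 (0.38 to 0.84) for Thbs1 and 0.26 (-0.09 to 0.57) for Tgfbi. At the same time fibroblast markers of the zone kept a steep edge, at 2259 against 293 CPM, and macrophage markers were even, at 621 and 608 CPM. The late zone had an edge pattern for both genes. Thbs1 was at 67.8 CPM in edge bins and 11.4 CPM deeper, a ratio of 2.57 (2.08 to 3.07), and Tgfbi at 135 and 21.4 CPM, 2.65 (2.30 to 3.01). The Thbs1 level of the zone edge at 28 days did not differ detectably from that of the opposite edge, 0.10 (-0.33 to 0.51), while Tgfbi was higher at the zone edge, 2.22 (1.79 to 2.67). Both edges were set by empty area alone, so they need not be the same kind of surface. Ccn5 at 28 days was at 201 CPM in zone edge bins and 149 CPM at 96 to 250 µm, but 11.4 CPM at 250 to 500 µm, a rim of about the first 250 µm. Macrophage markers of the 28 days zone also had an edge pattern, 3538 against 815 CPM. Thbs2 reached further in, at 73.2 CPM at the edge and still 34.4 CPM over 500 µm deep.

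Without edge bins in either zone, the 28 days ratio was 1.91 for Tgfbi, 2.33 for Thbs1 and 7.92 for Ccn5, and at 3 days 6.01 for Thbs1. For the other members the 28 days ratio was then 0.75 for Ccn3, 1.08 for Sparc, 1.14 for Ccn2, 2.58 for Ccn1, 2.80 for Thbs2 and 3.90 for Postn. The edge weighed unequally on the zones: dropping it took Ccn2 from 236 to 138 UMIs in the 28 days zone, while the mirror zone kept its 77 UMIs. Over zone bins whose mirror bin lay over tissue, the 28 days ratio was 1.38 for Tgfbi, 2.27 for Thbs1, 7.29 for Ccn5 and 0.88 for Ccn2. Against the whole opposite side it was 2.01 for Thbs1 and 0.44 for Ccn2.

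**Figure D4:**
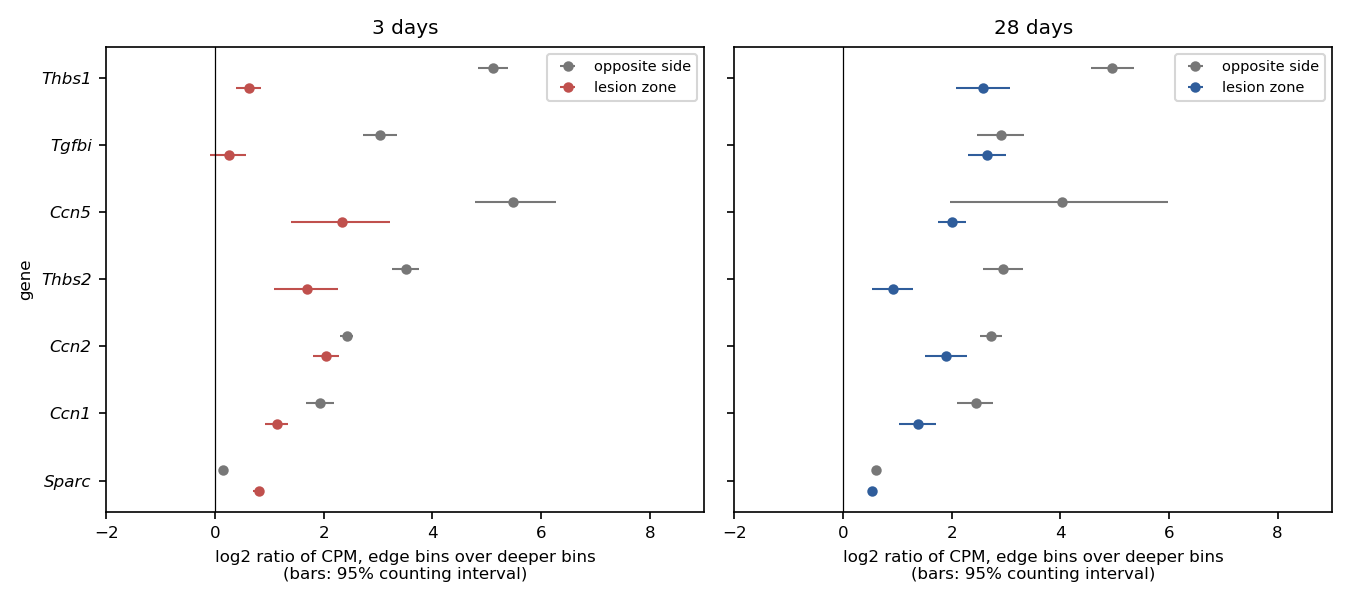
Log2 ratio of CPM in bins within 96 µm of the tissue edge over deeper bins (x axis) for 7 members (y axis), grey for the opposite side and coloured for the lesion zone, with 95% counting intervals, 3 days left and 28 days right. On the opposite side Thbs1 sits near 5 in both sections, whereas in the zone it is at 0.62 at 3 days and 2.57 at 28 days.

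Co-location was read bin by bin, after thinning each bin to 300 UMIs, as the level of a marker list in bins with a UMI of the member over that in the other bins of the same region. Tagln made up most of its list in the 3 days zone and Lyz2 in the 28 days zone. Ratios without them, an alternative chosen after the data were seen, are given for Thbs1, Ccn1, Ccn2, Ccn5 and Sparc and where the call was lost. In the 3 days lesion zone, bins with Thbs1 (306 bins) had higher macrophage markers, a log2 ratio of 1.83 (1.59 to 2.05), and higher fibroblast markers, 2.08 (1.82 to 2.33), but lower pericyte markers, -0.99 (-1.96 to -0.25), and lower astrocyte markers, -0.79 (-0.97 to -0.62). Smooth muscle markers without Tagln were higher in these bins as well, 2.53 (1.93 to 3.07), at 370 against 64.6 CPM. Bins with Thbs1 on the opposite side were rich in meningeal and vessel wall markers, with 4.25 (3.96 to 4.52) for fibroblast and 4.45 (4.18 to 4.69) for smooth muscle markers. In the 28 days zone the 37 bins with Thbs1 had a ratio of 4.05 (3.40 to 4.59) for smooth muscle, 2.76 (1.54 to 3.63) for fibroblast and 1.63 (1.03 to 2.12) for macrophage markers, the last -0.01 (-2.51 to 1.32) without Lyz2.

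Bins with Tgfbi in the 3 days zone had higher macrophage markers, 1.38 (1.09 to 1.64), and border macrophage markers, 1.84 (0.49 to 2.84). At 28 days the ratios were 2.58 (1.64 to 3.29) for fibroblast and 1.96 (1.57 to 2.30) for macrophage markers, the latter 0.28 (-1.14 to 1.23) without Lyz2. Ccn1 had another pattern: in the 3 days zone, bins with Ccn1 (381 bins) had lower microglial markers, -0.42 (-0.75 to -0.13), and slightly higher astrocyte markers, 0.22 (0.11 to 0.34). For macrophage markers the ratio was -0.53 (-0.98 to -0.14), with no detectable difference without Lyz2, -0.49 (-1.09 to 0.01). Its ratio for smooth muscle markers was 0.81 (0.51 to 1.09) in that zone, where the list was mostly Tagln, and 4.64 (4.44 to 4.82) on the opposite side, and without Tagln 0.95 (0.07 to 1.66) and 4.55 (4.29 to 4.80). Among the members with at least 20 such bins, Ccn2 had the highest fibroblast ratio in the 3 days zone, 3.17 (2.93 to 3.39), and it also shared bins with border macrophage markers, 2.98 (1.94 to 3.83). Its ratio for smooth muscle markers without Tagln was 2.55 (1.85 to 3.15) in that zone. Bins with Ccn2 on the opposite side were rich in smooth muscle markers, 4.02 (3.88 to 4.16), and in markers of layer 6b, the deepest cortical neurons, 3.41 (3.02 to 3.76).

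Ccn5 in the lesion at 28 days shared bins with macrophage markers, mostly Lyz2. Over 94 bins the ratio was 1.85 (1.51 to 2.15) for macrophage markers, 1.14 (0.36 to 1.75) for these without Lyz2 and 1.62 (-0.44 to 2.84), an interval that held 0 on 4 UMIs, without Lyz2 and Cd68. It was 0.51 (0.34 to 0.66) for astrocyte and -2.0 (-2.89 to -1.33) for neuronal markers. For fibroblast, -1.29 (-7.18 to 0.62), smooth muscle, -0.36 (-2.87 to 0.97), and pericyte markers, -0.84 (-2.60 to 0.25), no difference was detectable. In the 28 days zone Ccn5, Thbs1, Tgfbi and the macrophage markers were all higher at the edge than deeper. The co-location ratios did not hold distance from the edge fixed, and the part of this shared position was not tested. Opposite the lesion at 3 days, the 24 bins with Ccn5 had a ratio of 4.04 (3.19 to 4.70) for fibroblast and 4.57 (3.92 to 5.11) for smooth muscle markers. Thbs2 in the 28 days zone went with fibroblast, 1.74 (0.77 to 2.48), and smooth muscle markers, 1.64 (0.74 to 2.33), with no detectable difference in macrophage markers, 0.43 (-0.09 to 0.87). Sparc had weak ratios, the highest among the full lists in the 3 days zone being 0.98 (0.79 to 1.17) for fibroblast and 0.75 (0.55 to 0.95) for endothelial markers. For smooth muscle markers without Tagln it was 0.93 (0.44 to 1.39). Ccn3 in the 3 days zone went with fibroblast markers, 2.09 (1.43 to 2.64), over 45 bins. Ccn4 and Postn had too few bins in the 3 days zone (6 and 7) for a pattern. In the 28 days zone the 22 bins with Postn had a ratio of 1.22 (0.64 to 1.71) for microglial and 0.52 (0.16 to 0.84) for astrocyte markers. Among the members themselves, Tgfbi was higher in bins with Thbs1 than in the others at 3 days, 2.16 (1.67 to 2.60), and so was Ccn2, 2.42 (1.92 to 2.88).

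**Figure D5:**
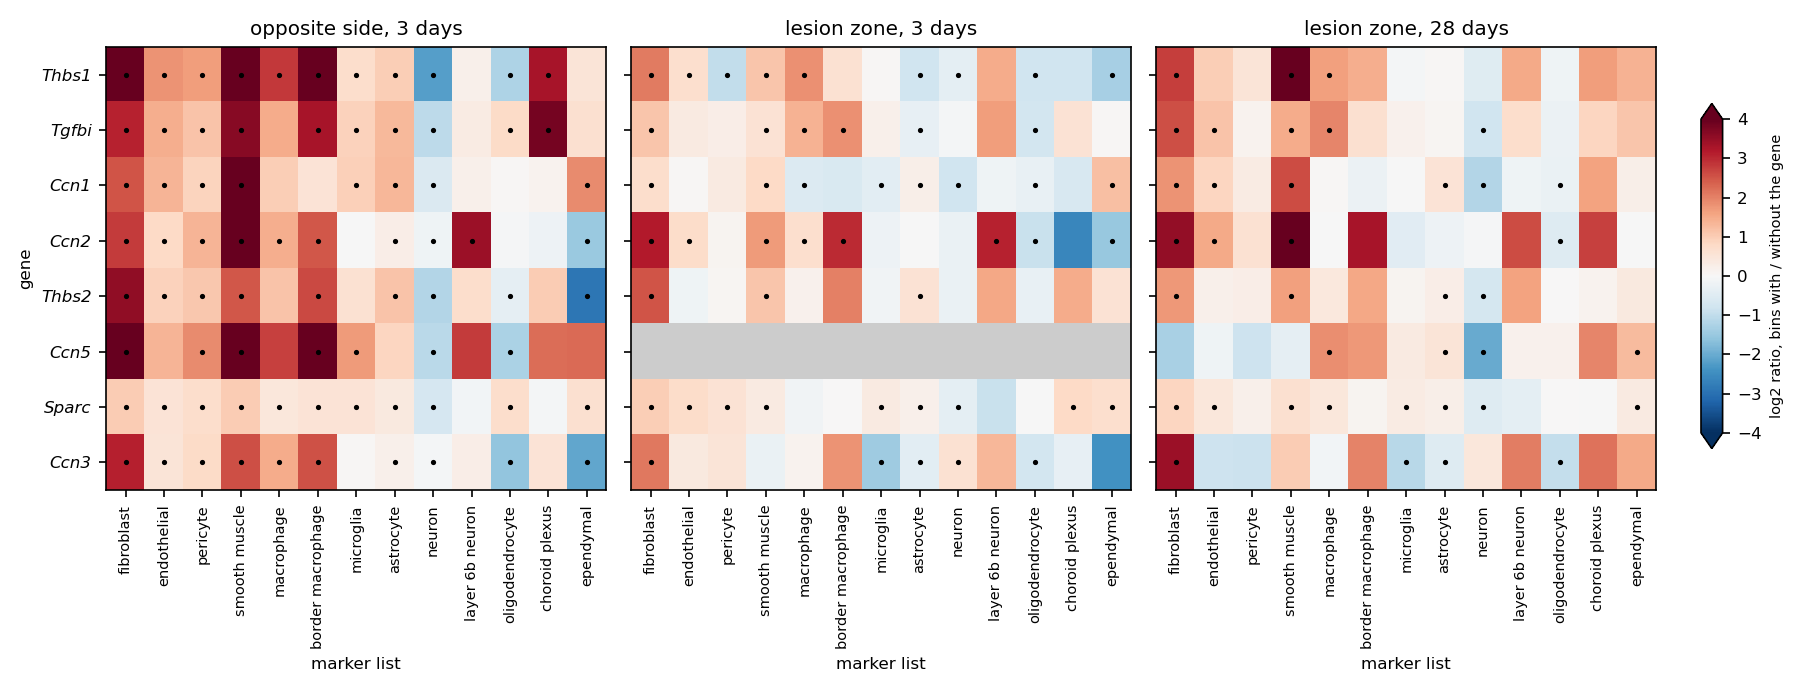
Log2 ratio of each marker list (x axis) between bins with and without a UMI of the member (y axis, 8 members), thinned to 300 UMIs, for the opposite side at 3 days and the lesion zone at 3 and 28 days; dots mark 95% counting intervals that exclude 0 and grey cells had fewer than 20 bins with the member or 20 marker UMIs. Fibroblast and smooth muscle columns are red for nearly all members on the opposite side, while Ccn5 in the 28 days zone is red for macrophage markers and not for fibroblast markers.

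The genes whose pattern was most like each member were found as Pearson's r of the square root of CPM over tiles of 8 by 8 bins. Tiles of a section share the library and are not independent, so r is a description. On the injured side at 3 days (601 tiles) Thbs1 was most like Arg1 (r = 0.84), Spp1 (r = 0.80) and Hmox1 (r = 0.79), genes of repair macrophages, osteopontin production and haem breakdown. Tgfbi was most like Thbs1 (r = 0.73), Hmox1 (r = 0.73) and Lyz2 (r = 0.71). Ccn1 was most like the cytoskeletal genes Vim (r = 0.78) and Msn (r = 0.75) and S100a11 (r = 0.76), and Ccn2 like the matrix genes Col3a1 (r = 0.71) and Fn1 (r = 0.70) and the contractile gene Tagln (r = 0.69). Away from the lesion the company changed. Opposite the lesion at 3 days (1273 tiles) Thbs1 was most like Slc13a4 (r = 0.69), Ogn (r = 0.68) and Ptgds (r = 0.67), genes of the meninges, and Ccn2 like Cplx3 (r = 0.54), a gene of layer 6b neurons. On the injured side at 28 days (780 tiles) Thbs1 was again most like Ogn (r = 0.61), Mgp (r = 0.61) and Slc13a4 (r = 0.58).

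Ccn5 on the injured side at 28 days was most like complement C3 (r = 0.73), Lcn2, a lipocalin of the innate defence, (r = 0.72) and Lyz2 (r = 0.66). The genes most like Thbs2 there included A2m (r = 0.43) and Cd74 (r = 0.42), whereas at 3 days its first gene was Aldh1a2 (r = 0.48), a retinoic acid enzyme of the meninges. Sparc was most like Agt, the angiotensinogen gene of astrocytes, on both opposite sides (r = 0.80 and 0.82). Ccn3 was most like Igfbp6, an insulin-like growth factor binding protein, on every side (r from 0.65 to 0.71). Between members the highest r was that of Tgfbi and Thbs1 on the injured side at 3 days (0.73), followed by Ccn1 and Tgfbi (0.59) and Ccn1 and Thbs1 (0.57).

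Genes that act with the members were read in the same zones, where 16.8% of all genes at 3 days and 15.1% at 28 days were at least 2-fold higher, with medians of 0.12 and -0.01. Of 13 further family genes 10 reached the minimum, of which at 3 days 3 were at least 2-fold higher and 2 lower, and at 28 days 3 and 3. The median log2 ratio of those 10 was 0.22 and 0.03. The highest were Stab1, a scavenger receptor that takes up SPARC, at 3.27 (91.5 against 9.44 CPM) at 3 days and 3.05 (34.3 against 4.09 CPM) at 28 days, and Thbs4 at 2.07 (39.2 against 9.30 CPM) and 2.40 (35.4 against 6.68 CPM). The lowest were the neuronal proteoglycans Spock1 at 3 days, -1.57 (38.0 against 113 CPM), and Spock3 at 28 days, -1.25 (205 against 486 CPM).

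Of 11 receptor genes 8 were at least 2-fold higher in the zone at 3 days and 6 at 28 days, none 2-fold lower, with medians of 1.54 and 1.12. At 3 days the highest were Cd36, the thrombospondin receptor of phagocytes and endothelium, 3.53 (14.9 against 1.23 CPM), and the fibronectin receptor subunit Itga5, 2.69 (44.5 against 6.84 CPM). In the late section they were the integrin genes Itgam, of phagocytes, 3.38 (207 against 19.8 CPM), and Itgb5, 2.77 (576 against 84.2 CPM). The lowest in both sections was Cacna2d1, the neuronal receptor of thrombospondins, at -0.87 (202 against 368 CPM) and -0.87 (176 against 320.1 CPM).

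Of 10 YAP/TAZ and SRF genes 9 reached the minimum, and 5 of these at 3 days and 4 at 28 days were at least 2-fold higher, with medians of 1.22 and 0.90. Axl, a receptor kinase of phagocytes that is also a YAP target, was highest in both, 1.81 (228 against 64.7 CPM) and 2.73 (452 against 68.1 CPM), followed by Ajuba at 3 days, 1.70 (36.5 against 11.2 CPM), and the TAZ gene Wwtr1 at 28 days, 1.44 (85.0 against 31.2 CPM). The lowest were Lats2, the kinase that restrains YAP, at 3 days, -0.08 (56.4 against 59.6 CPM), and Srf itself at 28 days, 0.05 (73.3 against 70.6 CPM). Of 9 TGF-beta genes 8 reached the minimum, of which 5 at 3 days and 4 at 28 days were at least 2-fold higher, with medians of 1.14 and 1.62. The ligand Tgfb1 was among the highest at 3 days, 2.90 (74.9 against 9.99 CPM). At 28 days Tgfb1, 3.37 (89.7 against 8.58 CPM), and its receptor Tgfbr1, 2.69 (219.9 against 34.1 CPM), were highest. The lowest were Tgfb2 at 3 days, -0.98 (29.2 against 57.6 CPM), and the inhibitor Smad7 at 28 days, 0.23 (36.6 against 31.2 CPM).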

How the data were processed

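Fixed, paraffin-embedded brain sections were profiled with the Visium HD mouse probe set, 1 section per group. Per the file headers, Space Ranger 4.0.1 made the UMI counts that the authors deposited for each gene and bin, raw and without normalization. The submitters' processing notes name build mm10. Counts rest on probes, so levels of different genes need not be on the same scale. Sums over a marker list, and the part of a single gene in them, weigh each gene by its probe counts.

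The members and gene lists were chosen with earlier results of these data known. Bins under 100 UMIs were left out (1.93% and 2.15%). Tiles of 4 by 4 bins joined the lesion zone where the share of the 6 phagocyte genes, averaged over 5 by 5 tiles, exceeded its 99th percentile opposite the injury and at least 25 such tiles were connected. Log2 ratios of CPM between regions used a pseudocount of 0.5 UMI and exact conditional binomial 95% intervals, checked on simulated counts, and a gene of at least 20 UMIs counted as higher or lower from a 2-fold difference on, whatever its interval. Both sections used 84781 of the same bin names, which are array positions and not cells. Thinning to 300 UMIs left out 1508 of 8469 zone bins at 3 days and 4422 of 13533 at 28 days. Of each gene list the 2 highest ratios and the lowest were named, and for each member up to 3 genes most like it, except 2 genes that are not reported here. Alternatives changed the scaling, minimums, midline, zone, reference and thinning. Python 3.11.15, numpy 2.4.6, scipy 1.17.1, R 4.3.3 and edgeR 4.0.16 (TMM scaling only) were used.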

Additional observations from a re-analysis of the deposited data

Results flagged for a closer look

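Ccn3 had side ratios of opposite sign at the time points, each with an interval that excluded 0: the log2 ratio of the injured over the opposite side was -1.54 at 3 days and 0.85 at 28 days. The difference between the sections was not tested, since each group held 1 section. In the columns captured on both sides of the midline the ratios were -0.31 and -0.14.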

How the results depend on the processing

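The counts of members at least 2-fold higher on the injured side and in the lesion zone over the mirror zone stayed within 1.5 times of those reported under scaling by trimmed means (TMM) or by the number of bins, no UMI minimum for bins or for genes, a midline moved by 12 bins, removal of edge bins, a zone threshold at the 95th percentile, the largest patch alone and the whole opposite side as reference, and under the alternatives of columns or zone bins with a counterpart across the midline, which were added after the data were seen. Counts between the sections and between edge and deeper bins were not recomputed under these alternatives. Which members made up the first counts changed. Over sides at 3 days Thbs2 was under 2-fold with TMM, the lower midline and shared columns (1.88 to 1.97-fold). Ccn3, 2-fold lower over sides at 3 days, was at 0.81-fold in shared columns. Over sides at 28 days Ccn1 was under 2-fold per bin, with the lower midline and without edge bins (1.79 to 1.87-fold), as was Tgfbi without edge bins (1.80-fold), and Ccn3 was above 2-fold without edge bins (2.06-fold) and Postn in shared columns (2.44-fold). In the zone at 28 days Sparc was under 2-fold per bin and at the 95th percentile (1.92 and 1.98-fold), Ccn2 against the whole opposite side and over bins with a mirror bin (1.36 and 1.85-fold) and Ccn3 under 7 alternatives (0.407 to 1.99-fold). Sparc at 3 days was above 2-fold with the higher midline (2.04-fold). The sign turned in 4 cases among ratios whose interval excluded 0. Ccn2 over sides at 3 days was -0.38 without edge bins. Ccn3 in the zone at 28 days was -1.30 against the whole opposite side and -0.053 over zone bins with a mirror bin, and over sides at 28 days -0.14 in columns captured on both sides. It also turned in 6 cases among ratios whose interval held 0: Ccn3 in the zone at 3 days was -0.35 per bin and -1.83 against the whole opposite side, and Ccn4 over sides was 0.32 at 3 days in columns captured on both sides and between -0.083 and -0.0019 at 28 days in those columns, per bin and with a midline 12 columns higher. The cause was not tested. Other values moved without a change of sign. In the zone at 3 days a midline 12 columns lower gave 2.66 for Ccn5 and a midline 12 columns higher 1.90 for Ccn2. A zone threshold at the 95th percentile gave 4.93 for Thbs1, 3.31 for Ccn5 and 1.19 for Ccn3 there, and no minimum per bin 1.10 for Ccn4. In the zone at 28 days a midline 12 columns lower gave 3.72 for Thbs1. The whole opposite side as reference gave 1.72 for Ccn2 and 3.14 for Ccn5 in the 3 days zone and 2.50 for Postn in that of 28 days. The interval of the Ccn2 side ratio at 3 days held 0 with TMM, per bin and with the higher midline (0.03 to 0.08). Scaling by bins shifted the median ratio of all genes in the zone from 0.12 to -0.46 at 3 days and from -0.01 to -0.25 at 28 days, and TMM shifted it from 0.12 to -0.02 at 3 days. Of 624 pairs of member and marker list 365 had an interval that excluded 0; of these, 11 had the other sign at 200 UMIs and 20 without thinning. Without thinning, where all bins of at least 100 UMIs entered at full depth, 562 of 741 pairs had such an interval. Of 84 places, the first 3 in each of 28 rankings of genes by likeness to a member, 54 went to genes that also held 1 of the first 3 with log2(CPM + 10). Only 1 of 3 was kept for Thbs1 on the injured side and Sparc on the opposite side at 3 days. The same held at 28 days for Ccn2 on both sides, Ccn3 on the opposite side and Tgfbi on the injured side. No paired analysis was possible because each group held 1 section. Depth limits Ccn4 and Postn, with under 200 UMIs a section, and Ccn5 at 3 days, with 167 UMIs.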
